A study of Mus musculus with 12 samples.

Results

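Liver makes glucose from lactate, pyruvate, amino acids and glycerol, and it senses incoming glucose through a small set of proteins that set how much is taken up and phosphorylated. The 9 genes described here cover both sides. They were chosen by name from the 57010 genes of the expression table. Pck1, Pcx, Fbp1 and G6pc encode the 4 enzymes by which glucose synthesis bypasses the irreversible steps of glycolysis. Ppargc1a and Foxo1 encode regulators of the transcription of these enzymes. Gckr, Pklr and Slc2a2 encode a regulator of hepatic glucose phosphorylation, liver pyruvate kinase and the glucose transporter GLUT2. All 9 were found, and 8 of them were among the 9980 genes that reached 1 TPM in at least 6 of the 12 libraries. TPM gives each gene's share of a library's transcripts after division by transcript length. Ppargc1a exceeded 1 TPM in 1 library and is treated apart.

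The livers came from wild-type male C57BL/6J mice on a normal diet. The selenium group (6 libraries, 1 mouse each) was gavaged every day with the filamentous food fungus Aspergillus oryzae A02 grown with selenium, at 0.5 mg selenium per kg in saline, and the control group (6 libraries, 1 mouse each) is labelled as untreated. The mice were 6 weeks old and had 7 days of acclimatization, and the protocol gives 10 mice in a group. The design text states 8 weeks of feeding, whereas the sample descriptions say 14 weeks. Fungus and selenium were given together and cannot be told apart, nor can gavage, since a saline gavage of the controls is not described. A label names hepatocytes, but the tissue is liver. The sum of 8 hepatocyte markers was 34651 to 53465 TPM in selenium and 33900 to 53074 TPM in control livers, and markers of other cells were also present: Kupffer cell genes summed to 60.2 to 257 TPM against 66.4 to 146 TPM, erythroid genes to 378 to 1494 TPM against 404 to 4271 TPM, stellate cell genes to 55.1 to 102 TPM against 65.3 to 138 TPM, and sinusoidal endothelial genes to 17.7 to 42.2 TPM against 19.9 to 47.7 TPM. None of these markers passed the adjusted threshold. Of the 5 stellate genes that reached the 1 TPM filter, 2 had an unadjusted limma p under 0.05. These were Dcn (28.9 TPM in selenium, 42.1 TPM in control) and Ecm1 (33.4 and 45.8 TPM). Of 5 such endothelial genes 1 did, Fcgr2b (6.59 and 10.2 TPM), beside 18.5% of all genes. Means in selenium were lower for every listed stellate gene but Des (1.16 and 0.893 TPM). The same held for every listed endothelial gene but Stab2 (5.74 and 4.71 TPM). All 8 Kupffer cell genes had higher means in selenium, for instance Cd5l (29.2 and 14.2 TPM), none with an unadjusted p under 0.05. The part of these markers in the results below was not tested. The values are therefore read as whole liver, in which fewer cells of a type and less RNA per cell cannot be told apart. Depth is unknown, because TPM carries no counts.

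Gluconeogenesis runs largely along glycolysis in reverse, and the 4 enzymes bypass its irreversible steps. Pyruvate carboxylase (Pcx) and phosphoenolpyruvate carboxykinase (Pck1) together turn pyruvate into phosphoenolpyruvate, fructose-1,6-bisphosphatase (Fbp1) opposes phosphofructokinase, and the catalytic subunit of glucose-6-phosphatase (G6pc) releases free glucose. In fasting, glucagon acts through cyclic AMP and the factor CREB to raise Ppargc1a, Pck1 and G6pc transcripts, whereas insulin acts through AKT to keep FOXO1 out of the nucleus. After a meal, glucose enters through GLUT2, the regulator GCKR eases its restraint on glucose phosphorylation, and the factor ChREBP, encoded by Mlxipl, raises Pklr.

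The promoters of 6 of the genes are shown, because the known inputs to the pathway differ between them and because Fbp1 and Pcx, described further on, varied together. The windows are from RefSeq on build GRCm38.p6, run from 250 bases before to 50 bases after an annotated start, and are written along the gene's own strand. The authors' files used GRCm39, so these coordinates belong to the RefSeq table and not to the expression values. Windows were found for all 9 genes, 11 in all, since Pklr and Pcx have 2 each. Capitals mark matches on either strand to 5 motifs: the core TGACG of the cyclic AMP response element, the FOXO motifs GTAAACA and TGTTTNC, the E-box CACGTG, and the carbohydrate response element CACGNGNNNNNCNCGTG, which binds ChREBP. The reverse complement of GTAAACA is itself a match to TGTTTNC.
Pck1, chr2:173152823-173153122, plus strand: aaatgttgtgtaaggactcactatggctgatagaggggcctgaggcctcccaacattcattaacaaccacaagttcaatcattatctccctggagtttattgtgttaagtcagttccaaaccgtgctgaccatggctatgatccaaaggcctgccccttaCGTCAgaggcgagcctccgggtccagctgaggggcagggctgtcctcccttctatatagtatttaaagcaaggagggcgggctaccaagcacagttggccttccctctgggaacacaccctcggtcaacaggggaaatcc
Ppargc1a, chr5:51567676-51567975, minus strand: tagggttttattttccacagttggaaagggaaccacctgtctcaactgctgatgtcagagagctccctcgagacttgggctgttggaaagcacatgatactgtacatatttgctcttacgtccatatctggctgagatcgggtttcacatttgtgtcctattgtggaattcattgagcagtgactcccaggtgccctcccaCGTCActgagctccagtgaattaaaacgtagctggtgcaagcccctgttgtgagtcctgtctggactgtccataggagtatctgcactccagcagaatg
G6pc, chr11:101367466-101367765, plus strand: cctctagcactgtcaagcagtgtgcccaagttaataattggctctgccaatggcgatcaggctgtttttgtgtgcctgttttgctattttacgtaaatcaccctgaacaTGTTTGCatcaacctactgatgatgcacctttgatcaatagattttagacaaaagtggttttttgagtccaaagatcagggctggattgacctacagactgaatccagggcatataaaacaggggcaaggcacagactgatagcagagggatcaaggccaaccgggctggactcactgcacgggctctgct
Fbp1, chr13:62888233-62888532, minus strand: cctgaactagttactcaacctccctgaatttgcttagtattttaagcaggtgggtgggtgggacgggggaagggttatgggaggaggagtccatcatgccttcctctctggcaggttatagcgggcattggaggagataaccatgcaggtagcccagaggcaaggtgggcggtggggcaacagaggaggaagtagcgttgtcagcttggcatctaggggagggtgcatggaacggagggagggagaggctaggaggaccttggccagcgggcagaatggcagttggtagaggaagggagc
Pcx, chr19:4510222-4510521, plus strand: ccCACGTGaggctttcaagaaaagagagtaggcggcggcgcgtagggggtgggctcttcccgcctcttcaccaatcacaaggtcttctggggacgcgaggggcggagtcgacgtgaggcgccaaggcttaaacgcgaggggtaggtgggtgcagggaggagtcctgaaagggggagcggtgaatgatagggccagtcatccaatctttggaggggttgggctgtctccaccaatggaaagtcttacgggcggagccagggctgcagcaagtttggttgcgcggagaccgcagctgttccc
Pklr, chr3:89136373-89136672, plus strand: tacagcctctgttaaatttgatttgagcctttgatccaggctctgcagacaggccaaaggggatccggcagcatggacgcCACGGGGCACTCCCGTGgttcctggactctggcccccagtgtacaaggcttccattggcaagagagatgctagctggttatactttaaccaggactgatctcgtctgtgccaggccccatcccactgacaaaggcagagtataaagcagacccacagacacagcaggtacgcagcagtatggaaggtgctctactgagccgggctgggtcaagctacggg

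The core of the cyclic AMP response element was found in the Pck1 window, as CGTCA from -90 to -86 relative to the start, and in the Ppargc1a window, as CGTCA from -49 to -45. Of all 32851 RefSeq windows of this length, 20.8% held it. The G6pc window held TGTTTGC from -141 to -135, a FOXO motif that 20.5% of all windows matched, and GTAAACA, present in 3.65%, was in none of the 11 windows. Pklr has an upstream start, from which the red cell form is made, and a downstream start for the liver form. The window at the downstream start held the carbohydrate response element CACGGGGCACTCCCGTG from -170 to -154, which only 15 of the 32851 windows (0.0457%) matched. The Pcx window shown had an E-box from -248 to -243, present in 7.15% of windows, and the Fbp1 window had no match to any of the 5 motifs. Short elements of 2 further sites were searched without being capitalised. CAAAG, part of the sites of HNF4, was in 8 of the 11 windows, from 6 genes, against 53.9% of all windows, and AGAACA, an arm of the glucocorticoid receptor site, was in the Gckr window alone among the 9 genes, against 19.0% of all windows. A match describes the letters only and shows neither binding nor its absence.

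Across the 12 livers the 9 transcripts differed widely in abundance. The enzyme genes Pck1 and Fbp1 were the most abundant, with means of 700 and 536 TPM, which placed them 127th and 166th among all genes. G6pc averaged 74.1 TPM, Pcx 59.7 TPM, Slc2a2 43.8 TPM and Gckr 43.1 TPM. Pklr lay between 13.9 and 27.6 TPM, and the regulators Foxo1 and Ppargc1a averaged 2.35 and 0.585 TPM. Not every neighbour in this order was separated. Fbp1 exceeded G6pc in 12 of 12 livers, Gckr exceeded Pklr in 12 and Pklr exceeded Foxo1 in 12, with no overlap of ranges. Foxo1 also exceeded Ppargc1a in 12, though their ranges overlapped. Slc2a2 exceeded Gckr in only 7 livers and Pcx exceeded Slc2a2 in 9. G6pc exceeded Pcx in 5 livers, 1 from the selenium group and 4 controls. Pck1 exceeded Fbp1 in 2 selenium livers and in all 6 control livers.

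Of the 9 genes, G6pc and Pck1 varied most from liver to liver. The highest liver had 7.38 times the G6pc and 6.17 times the Pck1 of the lowest, against 5.12 times for Ppargc1a, 3.80 times for Fbp1, 3.29 times for Foxo1, 2.80 times for Pcx, 2.20 times for Gckr, 1.99 times for Pklr and 1.84 times for Slc2a2. Control 4 was the highest liver for Pck1, G6pc and Ppargc1a, while control 5 was the lowest for G6pc, Fbp1, Pcx and Foxo1. The livers also differed in Dbp, a clock-controlled transcription factor whose level swings widely over the day. Dbp stood at 31.5 and 53.6 TPM in selenium 1 and 5 and at 15.7 and 28.5 TPM in control 5 and 6. It was 0.72 to 1.16 TPM in the other 4 selenium livers and 0.92 to 1.44 TPM in the other 4 controls. The hour of collection is not stated in the sources used here, so the differences of the 9 genes are also given within these classes, which hold 4 livers per group under 10 TPM of Dbp (low-Dbp) and 2 per group above it (high-Dbp).

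**Figure D1:**
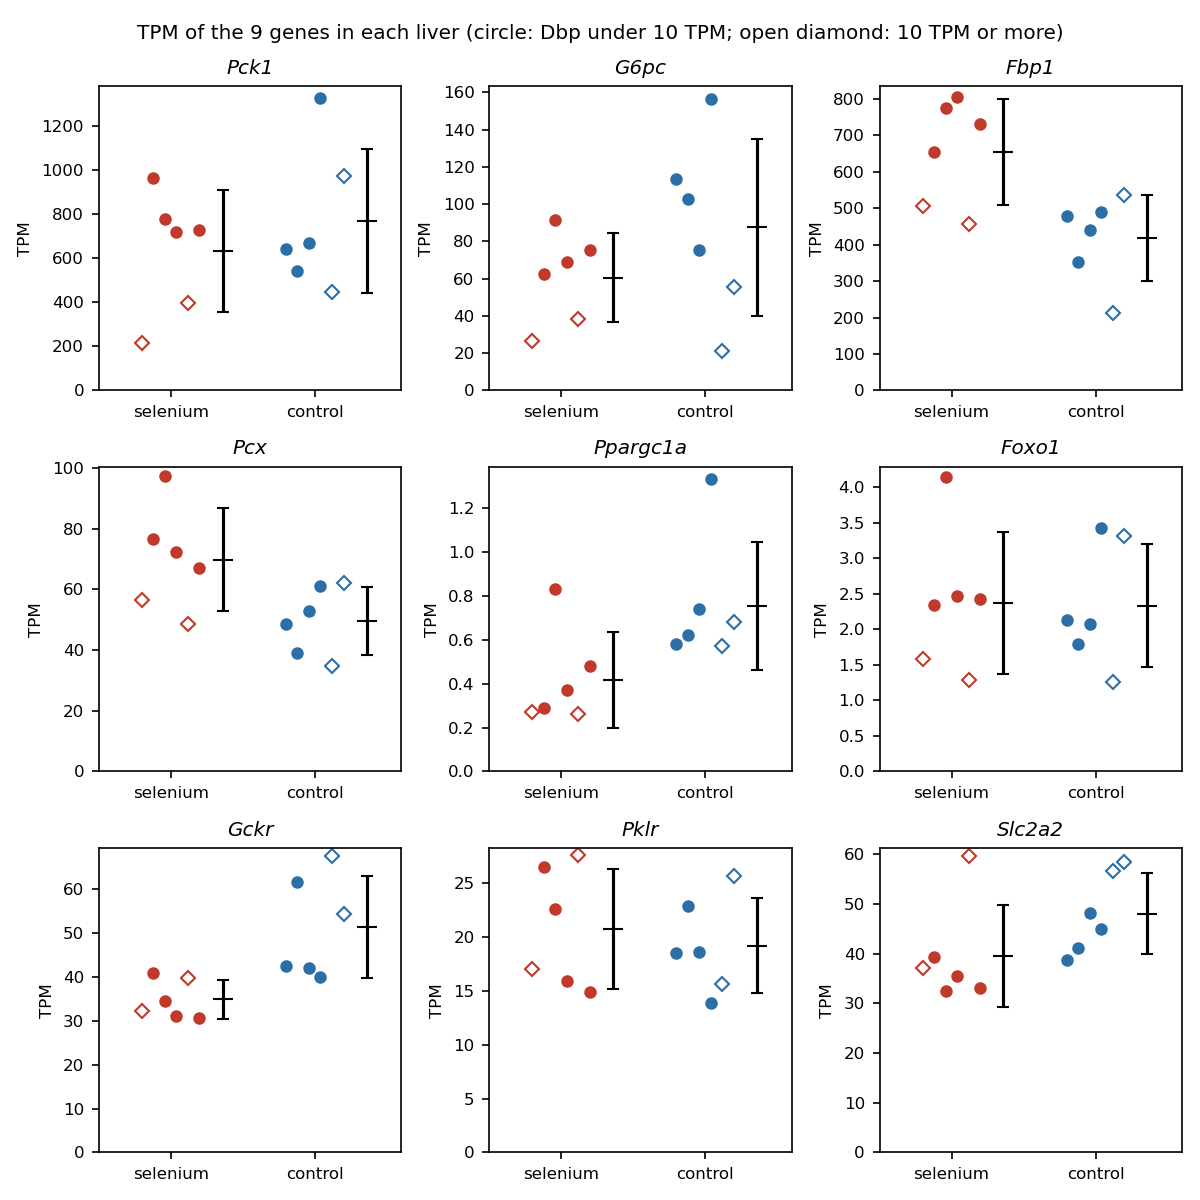
TPM of the 9 genes in each liver, selenium at left and control at right, in 1 panel per gene with its own axis from 0. Circles are livers with Dbp under 10 TPM, open diamonds those with 10 TPM or more, and the bars beside the points are mean ± SD (n = 6). For Fbp1 and Pcx 4 selenium livers lie above every control, for Gckr and Ppargc1a 5 selenium livers lie below every control, and for the other 5 genes the groups overlap more.

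The question put to these genes was whether their transcripts differed between livers of mice fed the selenium-enriched fungus and control livers. None of the 9 passed an adjusted p of 0.05 in limma on log2(TPM + 1) (two-sided, Benjamini-Hochberg over all genes tested), so none is described as changed. By comparison, 33 of the 9980 genes, or 0.331%, passed, 2 higher and 31 lower in selenium. That balance was 34 higher and 13 lower when only the 8 low-Dbp livers were fitted, and 56 higher and 115 lower without control 6. Of the 8 genes kept, 3 (Fbp1, Pcx and Gckr) had an unadjusted p under 0.05, a share of 37.5%, where 18.5% of all genes did. The 2 groups overlapped in all 8, whereas they did not overlap in 1.63% of all genes. The 8 log2 changes, all selenium minus control, were 4 positive and 4 negative with a median of -0.14, beside -0.03 over all genes.

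Fbp1, whose product removes a phosphate from fructose-1,6-bisphosphate, stood apart most among the enzymes. Its selenium livers 1 to 6 had 506, 654, 776, 805, 455 and 730 TPM, and its control livers 1 to 6 had 478, 353, 439, 490, 212 and 537 TPM. The 4 low-Dbp selenium livers were above all 6 controls, and the 2 high-Dbp selenium livers, 1 and 5, lay within the control range. The means were 654 ± 145 TPM in selenium and 418 ± 118 TPM in control (SD, n = 6 each). The log2 change was 0.67 (SE 0.22, 95% interval 0.20 to 1.15), with an unadjusted p of 0.00876 and an adjusted p of 0.148 in limma. The difference was 0.76 among low-Dbp and 0.51 among high-Dbp livers. An exact permutation test over all 924 labellings gave p = 0.0195, unadjusted and two-sided, where 0.00216 is the smallest p it can give.

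Pcx, which encodes the mitochondrial enzyme that carboxylates pyruvate to oxaloacetate, had the same arrangement of livers. It had 56.5, 76.8, 97.3, 72.3, 48.6 and 67.1 TPM in selenium livers 1 to 6, and 48.6, 39.0, 52.8, 61.0, 34.8 and 62.2 TPM in control livers 1 to 6. Again the 4 low-Dbp selenium livers exceeded every control, and selenium 1 and 5 did not. Pcx averaged 69.8 ± 17.0 TPM in selenium and 49.7 ± 11.2 TPM in control (SD, n = 6 each), a log2 change of 0.48 (SE 0.18, interval 0.09 to 0.87; adjusted p 0.191 in limma, exact permutation p 0.0368 unadjusted). Within classes it was 0.63 among low-Dbp and 0.17 among high-Dbp livers.

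Pck1, the cytosolic enzyme that makes phosphoenolpyruvate from oxaloacetate, showed no such separation. Selenium livers 1 to 6 had 215, 965, 778, 719, 396 and 726 TPM, and control livers 1 to 6 had 644, 543, 670, 1327, 448 and 975 TPM. Selenium 1 was lowest of the 12 and control 4 highest, and the groups otherwise covered the same range. The means were 633 ± 275 TPM and 768 ± 326 TPM (SD, n = 6 each), and the log2 change of -0.34 had an interval from -1.08 to 0.41 (adjusted p 0.645 in limma), which leaves room for a difference in either direction. Among low-Dbp livers the means were 797 TPM in selenium and 796 TPM in control, a log2 change of 0.08. Among high-Dbp livers they were 305 and 712 TPM, a log2 change of -1.18 from 2 livers per group. Without the 4 high-Dbp livers, then, the sign of the Pck1 difference turned. It was -0.058 when selenium 1 alone was left out and -0.16 when control 4 alone was.

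G6pc, the last enzyme on the way to free glucose, had 26.7, 62.7, 91.3, 69.1, 38.3 and 75.1 TPM in selenium livers 1 to 6 and 114, 103, 75.5, 157, 21.2 and 55.6 TPM in control livers 1 to 6. Control 4 again held the highest value, control 5 the lowest, and 3 controls exceeded every selenium liver. The means of 60.5 ± 24.0 TPM in selenium and 87.6 ± 47.4 TPM in control (SD, n = 6 each) differed by a log2 change of -0.40 with an interval from -1.29 to 0.49 (adjusted p 0.646 in limma). Low-Dbp livers averaged 74.6 TPM in selenium and 112 TPM in control, and high-Dbp livers 32.5 and 38.4 TPM. The log2 change was -0.55 among low-Dbp livers (unadjusted p 0.0266, adjusted 0.177 in limma) and -0.10 among high-Dbp livers. Single livers moved the G6pc value: it was -0.75 without control 5 and -0.19 without control 4 or without selenium 1. Slc37a4, which encodes the transporter that carries glucose-6-phosphate to this enzyme in the endoplasmic reticulum, averaged 31.8 TPM in selenium and 33.4 TPM in control.

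Ppargc1a encodes PGC-1alpha, a coactivator that is induced on fasting and acts with FOXO1 and HNF4A on Pck1 and G6pc. The transcript was scarce, at 0.27, 0.29, 0.83, 0.37, 0.26 and 0.48 TPM in selenium livers 1 to 6 and 0.58, 0.62, 0.74, 1.33, 0.57 and 0.68 TPM in control livers 1 to 6. All selenium livers but number 3 lay below the lowest control. Ppargc1a averaged 0.417 ± 0.219 TPM in selenium and 0.753 ± 0.290 TPM in control (SD, n = 6 each). In a limma fit without the filter on low values, over 26179 genes, its log2 change was -0.31 (SE 0.12, interval -0.57 to -0.04; adjusted p 0.351, unadjusted 0.0287). The pseudocount of 1 compresses a difference at this level: with 0.1 in its place the log2 change was -0.76. The difference was -0.28 among low-Dbp and -0.36 among high-Dbp livers.

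Foxo1, the insulin-restrained factor, showed little difference in mean. It had 1.58, 2.34, 4.14, 2.47, 1.28 and 2.42 TPM in selenium livers 1 to 6, against 2.13, 1.79, 2.08, 3.43, 1.26 and 3.31 TPM in control livers 1 to 6. Both groups ran from about the same low value, and selenium 3 was the highest liver. Means were 2.37 ± 1.00 TPM and 2.33 ± 0.861 TPM (SD, n = 6 each), a log2 change of 0.01 with an interval from -0.43 to 0.45 (adjusted p 0.991 in limma). The classes had opposite signs: the log2 change was 0.19 among low-Dbp livers, with means of 2.84 TPM in selenium and 2.36 TPM in control, and -0.36 among high-Dbp livers, with 1.43 and 2.29 TPM from 2 livers each. FOXO1 is controlled mainly by phosphorylation and location, which transcript levels do not show.

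Gckr, which encodes a nuclear protein that restrains glucose phosphorylation in hepatocytes when glucose is low, had the smallest p of the 9 genes. Selenium livers 1 to 6 had 32.3, 40.9, 34.7, 31.2, 39.8 and 30.7 TPM, and control livers 1 to 6 had 42.5, 61.6, 42.1, 40.0, 67.6 and 54.4 TPM. Only selenium 2 and control 4 overlapped, by less than 1 TPM, and the selenium livers were the closer together of the groups. The means were 34.9 ± 4.43 TPM in selenium and 51.4 ± 11.6 TPM in control (SD, n = 6 each). The log2 change was -0.53 (SE 0.15, interval -0.84 to -0.21), with an unadjusted p of 0.00294 and an adjusted p of 0.106 in limma. The exact permutation test gave an unadjusted p of 0.00433. The difference was -0.42 among low-Dbp and -0.74 among high-Dbp livers.

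Slc2a2, the GLUT2 transporter that lets glucose in and out of the hepatocyte, had 37.2, 39.3, 32.5, 35.4, 59.7 and 33.0 TPM in selenium livers 1 to 6 and 38.7, 41.1, 48.2, 44.9, 56.7 and 58.5 TPM in control livers 1 to 6. The other selenium livers lay between 32.5 and 39.3 TPM, near or below the lowest control, whereas selenium 5 was the highest of all 12. The means were 39.5 ± 10.2 TPM and 48.0 ± 8.11 TPM (SD, n = 6 each), a log2 change of -0.29 (SE 0.16, interval -0.63 to 0.05; adjusted p 0.350 in limma). It was -0.29 among low-Dbp and -0.28 among high-Dbp livers, and ranged from -0.41 to -0.23 when a library was left out.

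Pklr encodes the pyruvate kinase of liver and red cells, which ends glycolysis. It had 17.0, 26.5, 22.7, 15.9, 27.6 and 14.9 TPM in selenium livers 1 to 6, against 18.5, 22.9, 18.6, 13.9, 15.6 and 25.7 TPM in control livers 1 to 6. The groups covered nearly the same range, with means of 20.8 ± 5.57 TPM and 19.2 ± 4.41 TPM (SD, n = 6 each). The log2 change was 0.10 with an interval from -0.30 to 0.49 (adjusted p 0.822 in limma), and it was 0.09 among low-Dbp and 0.11 among high-Dbp livers. TPM per gene does not separate the liver form from the red cell form, and the part of blood in these values was not tested. Mlxipl, the gene of ChREBP, averaged 9.99 ± 2.19 TPM in selenium and 17.6 ± 5.40 TPM in control (SD, n = 6 each), a log2 change of -0.73 with an adjusted p of 0.0928 in limma.

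**Figure D2:**
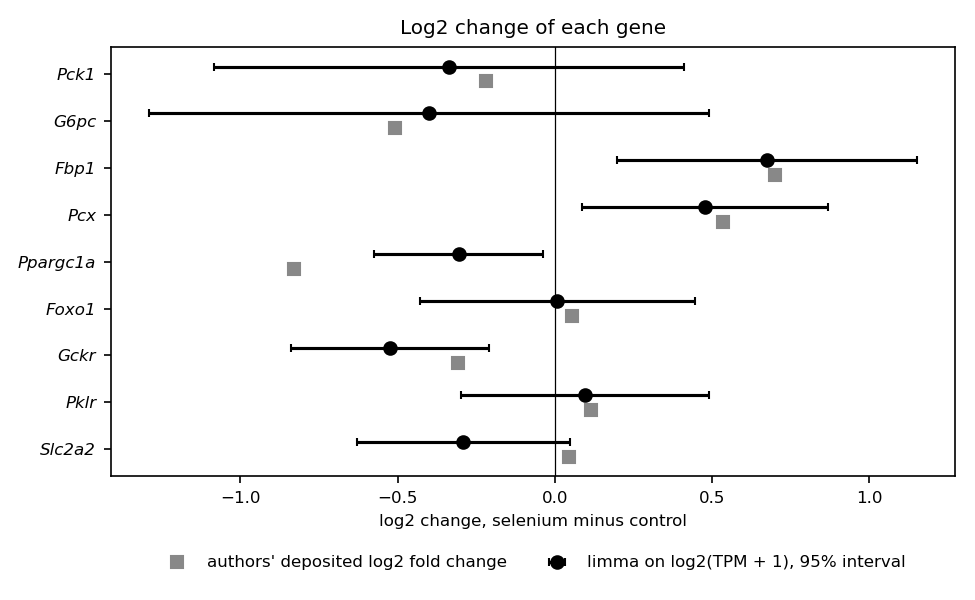
Log2 change of each of the 9 genes, selenium minus control, on the x axis. Black points are limma estimates on log2(TPM + 1) with 95% intervals, and grey squares are the log2 fold changes of the authors' deposited table turned to the same direction. The intervals of Fbp1 and Pcx lie above 0 and those of Gckr and Ppargc1a below 0, and the 2 sources lie on opposite sides of 0 for Slc2a2.

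The authors' deposited table holds their own fold changes and adjusted p-values, whose direction was turned to selenium over control. It calls 3 of the 9 genes at an adjusted p under 0.05. These are Fbp1 (log2 fold change 0.70, adjusted p 0.00867 in the authors' deposited table), Pcx (0.53, adjusted p 0.0139) and Ppargc1a (-0.83, adjusted p 0.0404). Of the 9980 genes kept here the authors' deposited table calls 9.87%, 696 higher and 289 lower, and 2 of the 8 kept glucose genes are among them. The remaining 6 were not called. In the authors' deposited table Gckr had -0.31 (adjusted p 0.196), G6pc -0.51 (0.397), Pck1 -0.22 (0.714), Pklr 0.12 (0.827), Foxo1 0.05 (0.927) and Slc2a2 0.05 (0.925). For Slc2a2 this sign is opposite to that of the TPM means. The median log2 fold change of the authors' deposited table over the 9980 genes was 0.06, where the limma fit on TPM had -0.03.

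Because each bypass enzyme of glucose synthesis is opposed by an enzyme of glucose use, ratios were formed within each liver as differences of log2(TPM + 1), and p-values were adjusted over a family of 4, of which 2 are given. The ratio of Pfkl, the liver phosphofructokinase gene, to Fbp1 was -6.62 ± 0.209 in selenium and -6.19 ± 0.483 in control (SD, n = 6 each), a difference of -0.43. Control 5 stood apart at -5.23. An exact permutation test gave an unadjusted p of 0.0216 and an adjusted p of 0.0866 over the 4. The difference was -0.29 among low-Dbp and -0.70 among high-Dbp livers. Without control 5 it was -0.23 with an adjusted p of 0.208, and without control 4 it was -0.50 with an adjusted p of 0.0346, by the same exact permutation test.

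The ratio of Pklr to Pck1 was -4.75 ± 0.840 in selenium and -5.18 ± 0.683 in control, a difference of 0.43 (adjusted exact permutation p 0.442). It was 0.01 among low-Dbp and 1.28 among high-Dbp livers. The groups overlapped widely, and selenium 1 and 5 had the 2 highest values of all 12, at -3.58 and -3.80.

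**Figure D3:**
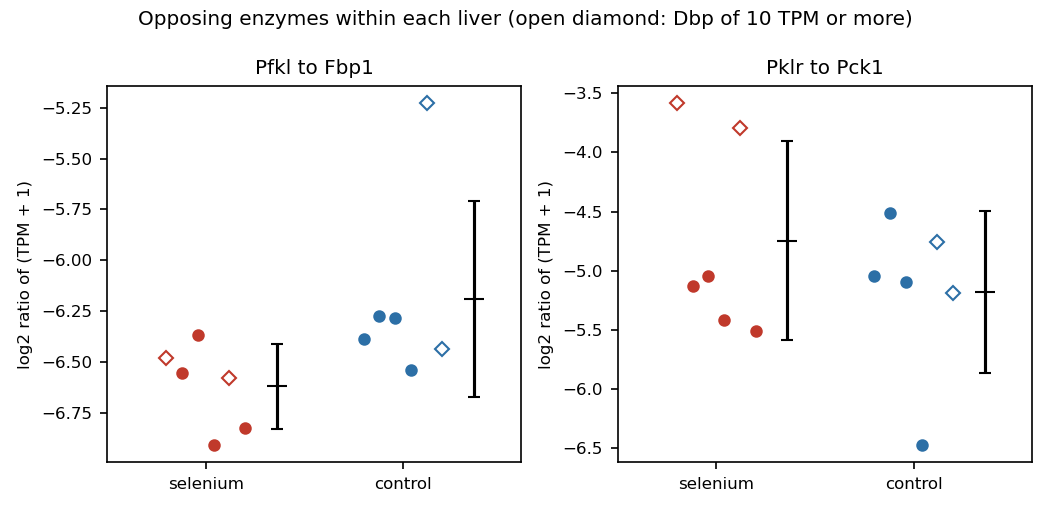
Log2 ratio of (TPM + 1) between 2 enzymes of opposite direction in each liver, selenium at left and control at right, with mean ± SD (n = 6) beside the points. Open diamonds are livers with Dbp of 10 TPM or more. In the panel of Pfkl to Fbp1, 5 controls lie between -6.54 and -6.27 and control 5 lies at -5.23. In the panel of Pklr to Pck1, selenium 1 and 5 are the highest points.

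Within the set, levels moved together in some pairs across the 12 livers. The 9 genes form 36 pairs, and all p below are from 100000 permutations with adjustment over the 36. Pearson's r passed the adjusted threshold in 4 pairs, 3 positive and 1 negative, and in 2 of the 4 Spearman's rho passed too. The closest pair was Fbp1 and Pcx, with r = 0.92 (p 6e-05, adjusted 0.00216) and rho = 0.93 (adjusted 0.00252). Its r was 0.93 without the 2 livers farthest from the median of Fbp1, 0.84 among selenium livers, 0.90 among controls and 0.90 among the 8 low-Dbp livers. The 4 high-Dbp livers are too few for a value of their own.

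The other positive pairs both held Foxo1. Pck1 and Foxo1 had r = 0.76 (permutation p 0.00332, adjusted 0.0327) and rho = 0.88 (adjusted 0.00468). The r of this pair was 0.82 without the 2 farthest livers, 0.68 among selenium livers, 0.97 among controls and 0.62 among low-Dbp livers. Pcx and Foxo1 had r = 0.77 (permutation p 0.00363, adjusted 0.0327) and rho = 0.78 (adjusted 0.053), with 0.97 among selenium livers, 0.95 among controls and 0.76 among low-Dbp livers. Without the 2 farthest livers r was 0.53, but leaving them out also narrows the range of Pcx, which can lower r by itself.

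Fbp1 and Gckr ran against each other, with r = -0.82 (permutation p 0.00068, adjusted 0.0122) and rho = -0.74 (adjusted 0.0641). This r was -0.66 without the 2 farthest livers, -0.46 among selenium livers, -0.74 among controls and -0.90 among low-Dbp livers. Part of the pooled value reflects the group means of both genes, and the values within groups are the ones free of them. The pair of Pck1 and G6pc, both targets of the fasting signal, missed the threshold, with r = 0.71 (permutation p 0.00907, adjusted 0.0544) and rho = 0.45 (adjusted 0.324). It was 0.45 without selenium 1 and control 4, the 2 livers farthest from the median of Pck1. Leaving them out also narrows the range of Pck1, which can lower r by itself. For this pair r was 0.92 among selenium livers, 0.59 among controls and 0.32 among low-Dbp livers. Livers share a fixed TPM total, which ties all genes of a library to each other. When each library was rescaled by its median of ratios, r was 0.90 for Fbp1 and Pcx and -0.86 for Fbp1 and Gckr. The 2 pairs with Foxo1 then no longer passed, with r of 0.70 for Pck1 (adjusted p 0.0756) and 0.65 for Pcx (adjusted p 0.112) in the permutation test.

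**Figure D4:**
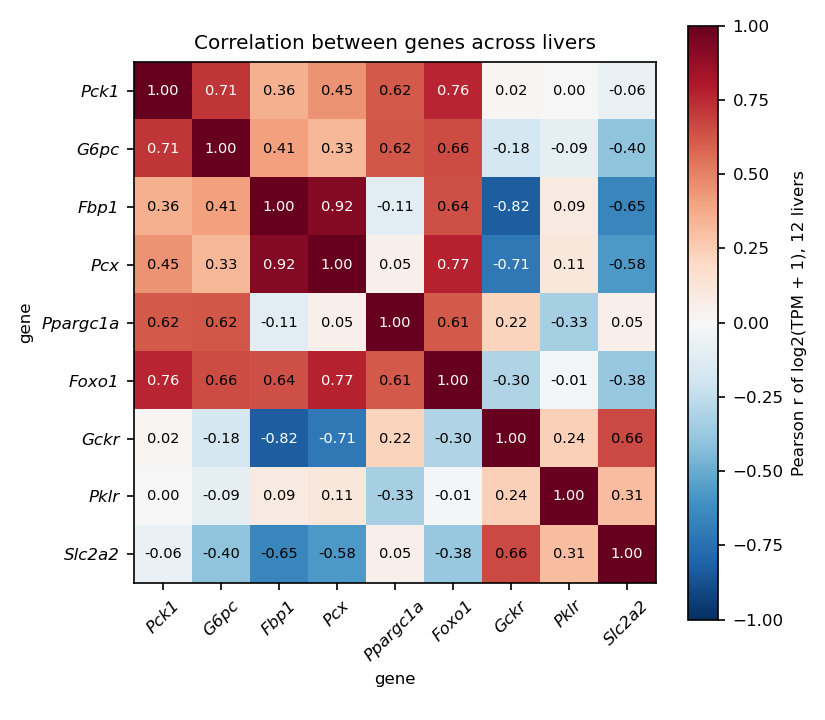
Pearson's r of log2(TPM + 1) between each pair of the 9 genes over the 12 livers, with the genes on both axes in the same order and r printed in each cell. The darkest red cell off the diagonal is Fbp1 and Pcx at 0.92, and the darkest blue is Fbp1 and Gckr at -0.82.

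For 4 of the genes, the transcripts that varied most like them were sought over the 12 livers, after each group's mean was taken off, among genes with a mean of at least 5 TPM. Nearest to Pck1 were Ddx47, an RNA helicase gene (r = 0.95), Angptl4, a secreted inhibitor of lipoprotein lipase (r = 0.95), and Aifm2 (r = 0.95). Among those nearest to G6pc were the mitochondrial carrier Slc25a25 (r = 0.93) and the glutamate transporter Slc1a2 (r = 0.93). Ppargc1a was followed most closely by the peroxisomal thioesterase Acot4 (r = 0.92), the phosphatidate phosphatase Lpin2 (r = 0.90) and the elongation factor Ell2 (r = 0.89). Gckr had weaker neighbours, namely Gstp3 (r = 0.79), the translation initiation factor Eif5b (r = 0.78) and Hdhd3 (r = 0.78). These are the highest of 5520 correlations for each gene, or of 5521 for Ppargc1a, and are given as a description.

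The surrounding pathway was read from 8 lists with 149 entries, and in none of them did a gene pass the adjusted threshold of limma in either direction. Counts of an unadjusted p under 0.05 are given in their place, to be read beside 700 higher and 1142 lower of all 9980 genes, the 18.5% given above. Among 22 kept regulators of gluconeogenic transcription, 2 were higher and 3 lower at this level (22.7% in all, against 18.5% of all genes), and the median log2 change was -0.03. Of these 22 log2 changes 9 were positive, although the regulators named next were all lower in selenium. Cebpb, a factor induced by glucagon and glucocorticoids, was the one named gene here whose groups did not overlap. It had 3.99, 10.6, 9.71, 12.9, 9.54 and 14.6 TPM in selenium livers 1 to 6 and 17.9, 18.3, 23.0, 30.0, 15.8 and 22.9 TPM in control livers 1 to 6. Cebpb had a log2 change of -1.04 (unadjusted p 0.000607, adjusted p 0.0671 in limma). Sik1, a kinase gene induced by cyclic AMP whose product restrains CREB coactivators, averaged 1.34 ± 0.372 TPM in selenium and 3.06 ± 1.69 TPM in control (SD, n = 6 each, here and below), a log2 change of -0.70 (adjusted p 0.164 in limma). The deacetylase gene Sirt1 had a log2 change of -0.38, and Klf15, a factor for amino acid use in fasting, had 36.6 ± 7.19 TPM in selenium and 52.3 ± 19.8 TPM in control. Crtc2, a CREB coactivator, averaged 4.57 TPM and 5.40 TPM.

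Substrate entry, 30 genes for the use of lactate, amino acids and glycerol, had 4 higher and 2 lower at an unadjusted p under 0.05, a share of 20% beside 18.5% of all genes, and a median of 0.09. Ldha, the lactate dehydrogenase subunit of most tissues, averaged 490 ± 115 TPM in selenium and 273 ± 65.6 TPM in control (log2 change 0.84, adjusted p 0.0762 in limma), with 5 selenium livers above every control. Gpd1, the glycerol-3-phosphate dehydrogenase of the cytosol, averaged 55.8 ± 7.11 TPM and 37.7 ± 11.4 TPM (0.59, adjusted p 0.105). The mitochondrial Gpd2 averaged 4.41 TPM in selenium and 3.00 TPM in control, a log2 change of 0.47. Of the 30 log2 changes in this list 16 were positive. The lower genes included Gls2, at 69.5 TPM in selenium and 86.3 TPM in control (log2 change -0.33). Among 12 kept enzymes shared by gluconeogenesis and glycolysis, 1 was higher and none lower (8.33%), the median was 0.02, and the smallest p belonged to Pgk1, the phosphoglycerate kinase gene (111 and 84.8 TPM, log2 change 0.39). Pck2, the mitochondrial isoform of Pck1, was below the filter at 0.443 TPM in selenium and 0.675 TPM in control.

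The list of glucose phosphorylation, sensing and liver glycolysis had 1 higher and 2 lower of 16 kept (18.8%), with a median of 0.05. Besides Mlxipl, the smallest p belonged to the fructose transporter Slc2a5, at 2.53 TPM in selenium and 1.18 TPM in control (log2 change 0.76), and to the glucose transporter Slc2a1, at 1.90 TPM and 2.92 TPM (-0.46). Pfkl averaged 5.66 ± 1.57 TPM in selenium and 4.52 ± 0.548 TPM in control, and Pfkfb1, the liver enzyme that makes and removes a sugar bisphosphate that inhibits FBP1, averaged 11.1 TPM and 12.4 TPM. Insulin signalling and FOXO1 targets had 3 higher and none lower of 18 kept, 16.7% beside 18.5% of all genes. The median of that list was -0.12 and 4 of the 18 log2 changes were positive, beside 4529 of all 9980. The 3 were Akt2, the AKT form that carries the insulin signal in liver (21.3 ± 4.78 TPM in selenium, 13.6 ± 3.42 TPM in control, log2 change 0.62, adjusted p 0.115 in limma), Mttp (0.33) and Akt1 (0.43). Igfbp1, an insulin-repressed target of FOXO1, had 1.31, 10.1, 47.6, 25.2, 1.80 and 21.6 TPM in selenium livers 1 to 6 and 27.3, 29.0, 24.9, 90.1, 14.2 and 11.7 TPM in control livers 1 to 6. Igfbp1 was lowest in the high-Dbp livers of each group and highest in control 4, the liver that also led Pck1, G6pc and Ppargc1a.

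**Figure D5:**
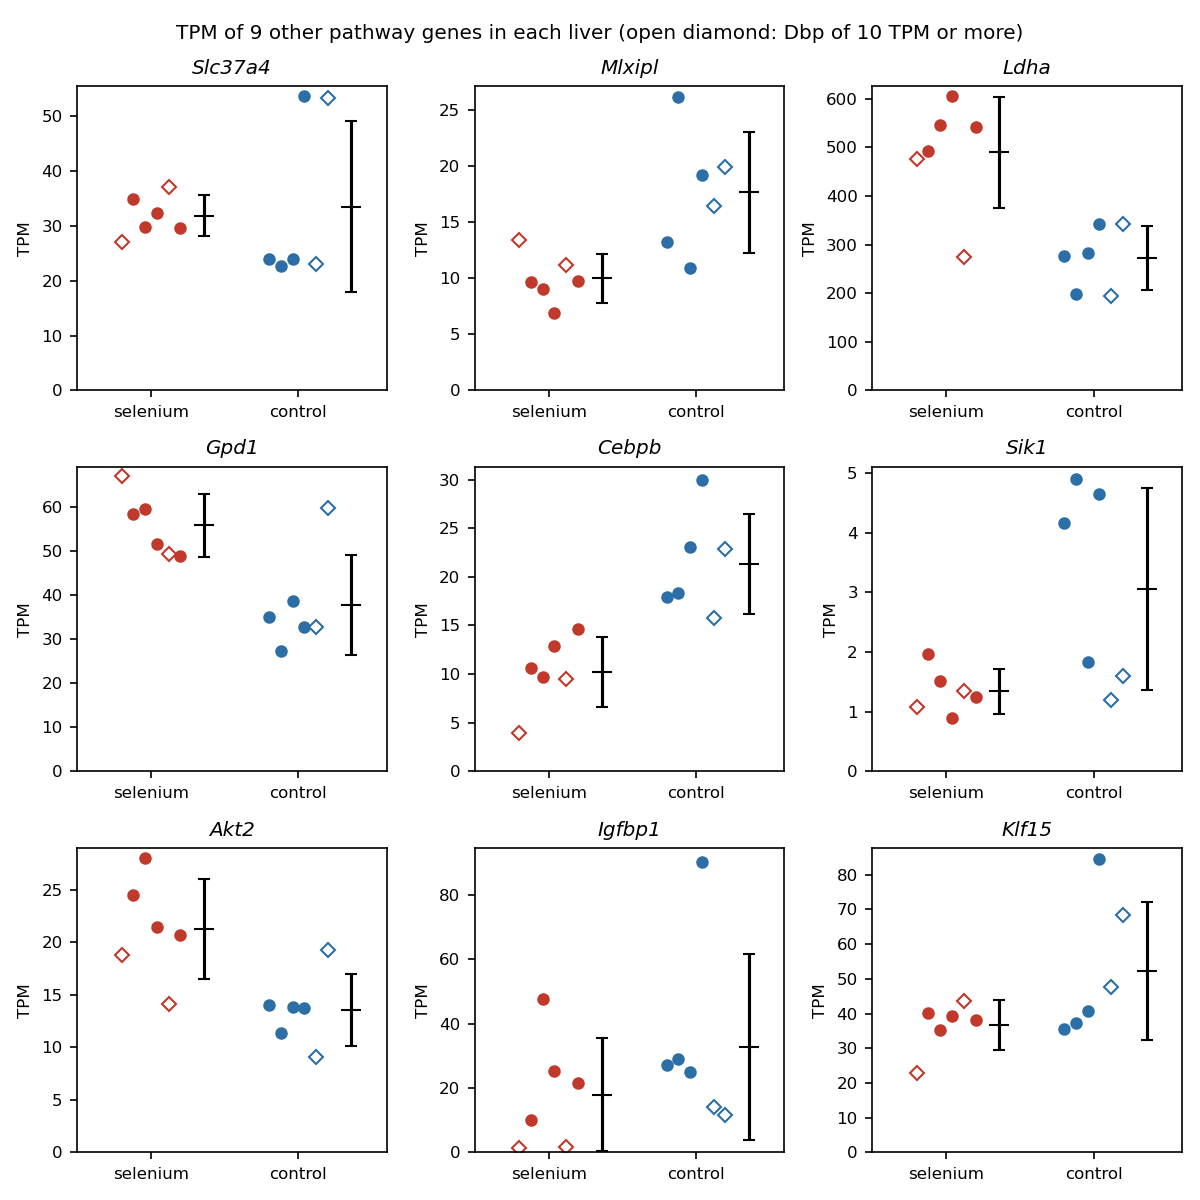
TPM of 9 other genes of glucose metabolism in each liver, selenium at left and control at right, with mean ± SD (n = 6) beside the points and each axis from 0. Open diamonds are livers with Dbp of 10 TPM or more. All 6 selenium livers lie below the controls for Cebpb, 5 of 6 lie above the controls for Ldha, and Slc37a4 overlaps throughout.

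Several properties of whole libraries moved with the groups beside the results above. Mitochondrial-encoded transcripts took 8.10% to 13.8% of TPM in selenium and 13.3% to 22.8% in control livers, and major urinary protein transcripts took 26.2% to 39.8% and 13.0% to 33.5%. Their part in the differences was not tested, except that rescaling without mitochondrial-encoded genes shifted the median log2 change of all genes to -0.11. On that scale the log2 change was 0.58 for Fbp1, 0.38 for Pcx and -0.62 for Gckr. Transcripts that define kidney tubule, the other site of glucose synthesis, were nearly absent: Slc34a1, Slc22a8 and Umod were listed at 0 in all 12 libraries. Markers of periportal hepatocytes, where gluconeogenesis is strongest, had a median log2 change of -0.18 over 12 genes, with 1 higher and 2 lower at an unadjusted p under 0.05 (25%). The 11 pericentral markers had -0.09, with none higher and 2 lower (18.2%), and no marker of either zone passed the adjusted threshold.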

How the data were processed

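Liver RNA of 6 selenium and 6 control mice was sequenced. Tools named per the submitters' processing notes are the aligner HISAT2 2.1.0, the quantifier RSEM 1.2.8 and the count test DESeq2, and the build named there is GRCm39. The authors deposited TPM per gene and library, so depth and counting error are unknown and no count test was run. The log2 fold changes and the raw and adjusted p-values in the series table are the authors' own, as deposited, and their direction was turned from control over selenium.

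Genes with at least 1 TPM in 6 or more of the 12 libraries (9980) were tested on log2(TPM + 1) with limma 3.58.1 in R 4.3.3, using an intensity trend, two-sided and without covariates, with Benjamini-Hochberg adjustment over all of them and a threshold of 0.05. Such fold changes understate those of low genes. Ppargc1a and Pck2 fell below the filter and come from a fit without it, on the same log2(TPM + 1). The procedure was tested on simulated data. Ratios used exact permutation tests in R, and correlations used permutation tests in numpy 2.4.6 with ranks from scipy 1.17.1. Dbp classes divide at 10 TPM. The members and lists, and the genes named, were chosen with earlier results of these data known. Named genes are the 9 members, 16 fixed pathway genes, the 3 smallest p of each list, and the 3 genes most like each of 4 members; 2 of these genes, and 2 of the 4 ratios, are not reported here. Alternatives were other pseudocounts (0.1, 0.5), filters, scalings and tests, a replicate block, leaving out each library and the low-Dbp livers. Replicate numbers name mice, and the labels do not say that they pair them.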

Additional observations from a re-analysis of the deposited data

Results flagged for a closer look

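In 102 groups of 6 livers, 1 for each named gene or ratio in each group, the highest or lowest liver was compared with the nearest of the others. The gap exceeded 0.625 of the group's range (Dixon's 95% critical value for 6) in 9, where chance alone gives about 5.1.

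Control 4 held 4 of them. Its Ppargc1a stood at 1.33 TPM, above 0.57 to 0.74 TPM in the other controls, its Igfbp1 at 90.05 TPM against 11.66 to 28.96 TPM, and its Sirt1 at 3.5 TPM against 2.37 to 2.63 TPM. Its log2 ratio of Pklr to Pck1 was -6.48, below -5.19 to -4.51 in the others. Pck1, at 1327 TPM in this liver, was also the highest of all 12.

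Selenium 5, a high-Dbp liver, had 59.73 TPM of Slc2a2, above 32.45 to 39.31 TPM in the other selenium livers, and 257.68 TPM of the pericentral gene Cyp2a5, above 98.84 to 136.11 TPM. Control 5 had a log2 ratio of Pfkl to Fbp1 of -5.23, above -6.54 to -6.27 in the other controls, in the liver with the lowest Fbp1 of all 12. Control 6 had 59.68 TPM of Gpd1, above 27.26 to 38.72 TPM, and selenium 2 had 519.97 TPM of the periportal gene Cyp2f2, above 324.89 to 385.29 TPM.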

How the results depend on the processing

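None of the 9 genes passed the adjusted threshold under any of the alternatives run. Fbp1 and Gckr had an unadjusted p under 0.05 in 24 of 24 alternatives, with log2 changes of 0.49 to 0.77 and -0.62 to -0.42 and adjusted p of 0.0582 to 0.282 and 0.0607 to 0.231. Pcx did so in 23 of 24 (0.38 to 0.63) and Ppargc1a in 16 of 22 (-0.76 to -0.21). Slc2a2 did so in 4 of 24 (-0.41 to -0.23) and G6pc in 2 of 24 (-0.75 to -0.19). The number of all genes called, 33, was 1 without the filter, 12 after quantile normalization, 190 without mitochondrial-encoded genes and 3 with a replicate block. It was 7 to 171 when a library was left out, the lowest without control 2 and the highest without control 6. The exact permutation test called 0, where 1842 had an unadjusted p under 0.05 in limma. Its smallest possible p is 0.00216, and Cebpb at that p had an adjusted p of 0.133. Neither the 9 genes nor any other could therefore pass that test. Median-of-ratios scaling called 6 higher and 24 lower. The labels do not say that a replicate number marks a shared cage, litter or day. Deviations of same-numbered livers correlated at -0.14 to 0.11, which cannot settle whether it does. The Pfkl to Fbp1 ratio ranged from -0.50 to -0.23 when a library was left out, and passed without control 4. It was -0.39 with a pseudocount of 0.1 (adjusted exact permutation p 0.225) and -0.37 after quantile normalization (0.268). With median-of-ratios scaling the ratio was -0.43 (adjusted exact permutation p 0.0779). Signs turned for small differences. Without mitochondrial-encoded genes Foxo1 was -0.060 and Slc37a4 -0.061. Among low-Dbp livers Pck1 was 0.083, Pfkfb1 0.018, Crtc2 0.010, Tat 0.070 and Dbp -0.14. Leaving out a library gave ranges of -0.49 to -0.058 for Pck1, -0.75 to -0.19 for G6pc, -0.12 to 0.11 for Foxo1, -0.053 to 0.19 for Slc37a4, -0.19 to 0.075 for Pfkfb1, -0.31 to 0.056 for Irs2, -0.40 to 0.069 for Tat and -0.45 to 0.75 for Dbp. Some other genes passed under alternatives: Ldha with median-of-ratios scaling (adjusted p 0.0491), among low-Dbp livers (0.0483) and without control 6, Gpd1 without control 6 (0.0221), Cebpb without mitochondrial-encoded genes (0.0353) or with Dbp class as covariate (0.0497), and Akt2 among low-Dbp livers (0.0483), all in limma. Median-of-ratios scaling of the correlations was chosen after seeing the data. It also brought Pcx and Gckr past the threshold (r = -0.80, adjusted permutation p 0.021, against -0.71 and 0.0544). The cause of these shifts was not tested, and the depth behind low values such as those of Ppargc1a is unknown.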

Other observations

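Glycogen metabolism, the other source of liver glucose, had 2 genes higher and none lower of 16 kept at an unadjusted p under 0.05. This was 12.5%, below the 18.5% of all genes, with a median log2 change of 0.08 and none past the adjusted threshold in limma. The 2 were Pgm1, which interconverts glucose-1-phosphate and glucose-6-phosphate and averaged 67.0 TPM in selenium and 51.6 TPM in control (log2 change 0.40), and Stbd1, a glycogen-binding protein gene at 36.6 TPM and 25.4 TPM (0.59). Gys2, liver glycogen synthase, averaged 42.8 TPM in selenium and 43.9 TPM in control, and Pygl, liver glycogen phosphorylase, 59.0 TPM and 51.4 TPM.

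Values of 3 further genes linked to fasting, none past the adjusted threshold in limma, complete those of the named genes. Tat, the tyrosine aminotransferase gene induced by glucagon and glucocorticoids, averaged 379 ± 144 TPM in selenium and 470 ± 304 TPM in control (SD, n = 6 each), a log2 change of -0.19. Irs2, the insulin receptor substrate that rises on fasting, averaged 1.99 TPM in selenium and 2.47 TPM in control (-0.16). Pdk4, which restrains pyruvate oxidation, had 0.82, 1.00, 11.95, 6.49, 0.72 and 1.91 TPM in selenium livers 1 to 6 and 4.63, 3.58, 3.68, 5.16, 1.78 and 1.33 TPM in control livers 1 to 6. Its mean was carried by selenium 3: the medians of Pdk4 were 1.46 TPM in selenium and 3.63 TPM in control, and its log2 change was -0.24, or -0.62 without selenium 3.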
